A study of Mus musculus with 8 samples.

Results

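The genes described here encode feedback inhibitors of the RAS-ERK pathway, together with Etv4, a transcription factor induced by the same pathway. They were taken by gene symbol, as a list of 10, from a table of 22244 genes: the dual-specificity phosphatase genes Dusp1, Dusp4, Dusp5 and Dusp6, the Sprouty genes Spry1, Spry2 and Spry4, the Spred genes Spred1 and Spred2, and Etv4. All 10 were found in the table, and all 10 had enough counts to be among the 14192 genes tested. Total RNA had been sequenced from the right cranial lung lobe of adult male C57BL/6J mice, an inbred strain, 4 of them controls labelled as untreated and 4 injected with naphthalene. Naphthalene is an aromatic hydrocarbon that injures the club cells of the mouse airway. Dose, vehicle and sampling time are not stated in the labels, and the controls are not labelled as injected, so effects of the injection and of naphthalene cannot be told apart. All cell types of the lobe were sequenced together, so fewer cells of a type and less RNA per cell cannot be told apart either. Nothing in the labels says whether mice shared a litter or a day.

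ERK is the last kinase of a cascade that runs from receptor tyrosine kinases through RAS, RAF and MEK, and that drives proliferation, migration and repair in lung epithelium. Active ERK switches on genes whose products turn the cascade down again. Dual-specificity phosphatases remove the activating phosphates from MAP kinases, Sproutys act between the receptor and RAF, and Spreds bring the RAS inactivator neurofibromin to the membrane. Etv4 is an ETS factor of the PEA3 group, known in lung epithelium as a target of FGF signalling and not itself an inhibitor of the kinases. Because their transcription follows ERK activity, several of these genes are commonly used as transcript readouts of the pathway, although other signals also act on them.

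Sequences upstream of the start were matched by symbol for 7 of the 10 genes in a RefSeq promoter table (GRCm38.p6, another build than that named for the counts). Those of Dusp1 and Dusp5 are shown because they hold the most motif matches. Those of Dusp6 and Spred2, the latter with a match too, are shown because these genes went in opposite directions. Each is the 250 bases before the annotated start, written 5′ to 3′ on the gene's strand, with motif matches in capitals. The regions are chr17:26508473-26508722 (minus strand), chr19:53528895-53529144 (plus), chr10:99262981-99263230 (plus) and chr11:19924192-19924441 (plus).
Dusp1: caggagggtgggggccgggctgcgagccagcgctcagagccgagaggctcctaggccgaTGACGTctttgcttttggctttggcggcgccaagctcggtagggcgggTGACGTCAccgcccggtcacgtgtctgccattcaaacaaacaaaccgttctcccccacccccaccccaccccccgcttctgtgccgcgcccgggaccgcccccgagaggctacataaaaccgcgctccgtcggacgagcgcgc
Dusp5: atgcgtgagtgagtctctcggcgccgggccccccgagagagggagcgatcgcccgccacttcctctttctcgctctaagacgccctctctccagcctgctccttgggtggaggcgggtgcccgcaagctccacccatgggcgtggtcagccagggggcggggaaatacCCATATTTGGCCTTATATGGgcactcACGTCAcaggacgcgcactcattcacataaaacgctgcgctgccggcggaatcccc
Dusp6: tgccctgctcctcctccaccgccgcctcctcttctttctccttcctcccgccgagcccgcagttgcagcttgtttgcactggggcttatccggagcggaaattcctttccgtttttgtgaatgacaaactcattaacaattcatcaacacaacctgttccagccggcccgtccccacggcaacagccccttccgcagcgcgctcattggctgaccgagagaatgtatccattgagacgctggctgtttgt
Spred2: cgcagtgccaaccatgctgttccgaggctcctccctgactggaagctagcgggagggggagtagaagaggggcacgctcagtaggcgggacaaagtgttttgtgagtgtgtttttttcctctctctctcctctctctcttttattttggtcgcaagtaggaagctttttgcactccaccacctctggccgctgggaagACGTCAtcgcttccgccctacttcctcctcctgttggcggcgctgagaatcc

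Windows of 300 bases, from 250 before to 50 after the start, were searched on both strands for 4 motifs. TGACGT, the core of the cAMP response element, was found in Dusp1, Dusp5 and Spred2. In Dusp1 it began 191 and 143 bases upstream, and the second match overlapped one on the other strand, so that together they spelled TGACGTCA. In Dusp5 it began 56 bases upstream and in Spred2 52 bases upstream, both on the reverse strand. The CArG box, bound by serum response factor, was found in Dusp5 alone of the 7, as adjoining matches beginning 82 and 72 bases upstream and read on both strands. CCGGAA, a core bound by ETS factors, was found in Spry2 alone, 33 bases after the start, and TGANTCA, the AP-1 site, in 0 of the 7. Among all 32851 windows in that table, 7.51% held TGACGT, 1.63% the CArG box, 14.9% CCGGAA and 7.81% TGANTCA. These matches describe the letters only, and binding was not measured.

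The comparison of naphthalene-injected with control lungs asked which of these genes differed in transcript level. Dusp4, Dusp5, Dusp6 and Etv4 rose, by between 1.33-fold for Dusp6 and 2.46-fold for Etv4, and Spred2 fell to 0.797 of its control level. Dusp1, the Sprouty genes and Spred1 did not pass the threshold, which was an adjusted p of 0.05 in edgeR's quasi-likelihood test with Benjamini-Hochberg adjustment over all tested genes. Thus 5 of the 10 genes passed, against 28.7% of all tested genes, with 4 higher against 14.1% and 1 lower against 14.6%. The groups did not overlap for Dusp6, Etv4 and Spred2, or 3 of 10 genes, against 28.6% of all tested genes. That share is near the background. The median log2 fold change was 0.41 over the 10 genes and 0.01 over all tested genes.

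**Figure D1:**
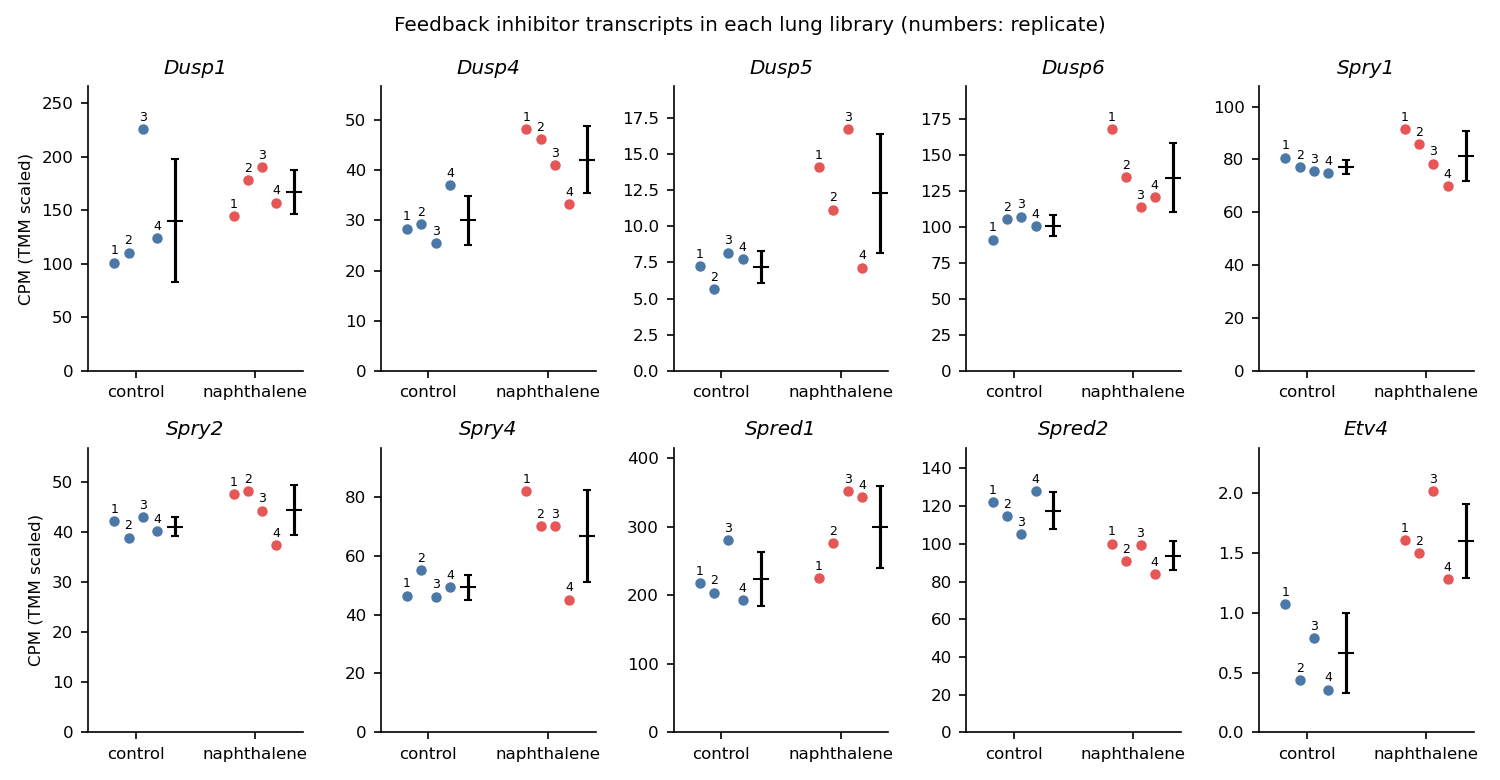
Level of each of the 10 genes in each library, in CPM (y axis from 0) in 4 control and 4 naphthalene libraries, with replicate numbers beside the points and the mean with SD as a bar. Dusp6 and Etv4 lie higher and Spred2 lower in all naphthalene libraries, Dusp1 stands high in control 3 at 226 CPM, and naphthalene 4 is the lowest naphthalene library for Dusp4, Dusp5, Spry1, Spry2, Spry4, Spred2 and Etv4.

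Among the phosphatases, Dusp6, which acts on ERK in the cytoplasm, was at 91.3, 105.4, 107 and 101 CPM in controls 1 to 4 and at 168, 135, 114 and 121 CPM in naphthalene 1 to 4. CPM are counts relative to the library total, with totals scaled by the TMM method. All naphthalene libraries were above all controls, and naphthalene 1 was the highest. The log2 fold change was 0.41 (SE 0.13, edgeR adjusted p = 0.0273).

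Dusp4, an inducible nuclear phosphatase of ERK and other MAP kinases, was at 28.3, 29.2, 25.5 and 37.0 CPM in controls and at 48.1, 46.1, 40.9 and 33.1 CPM after naphthalene. The groups overlapped in control 4, which was higher than naphthalene 4. Its log2 fold change was 0.49 (SE 0.16, edgeR adjusted p = 0.0274).

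Dusp5, a nuclear phosphatase that binds and retains ERK, was low, at 7.26, 5.66, 8.17 and 7.73 CPM in controls and 14.1, 11.2, 16.7 and 7.14 CPM after naphthalene. These rest on 78 to 108 counts per control and 78 to 237 per naphthalene library. Naphthalene 4 lay within the control range and the other naphthalene libraries above it. The log2 fold change was 0.77 (SE 0.29, edgeR adjusted p = 0.0309).

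Dusp1, an immediate early phosphatase with a preference for the stress-activated MAP kinases and a known glucocorticoid target, was at 101.2, 110.4, 226 and 124 CPM in controls and at 145, 178, 190.3 and 157 CPM after naphthalene. Control 3 was above every other library, and the other controls were below every naphthalene library. The log2 fold change of 0.26 did not pass (SE 0.28, edgeR adjusted p = 0.415), and without control 3 it was 0.58 with adjusted p = 0.00663. Control 3 also had the highest sum among controls over a list of immediate early genes that respond to tissue handling. That sum was 943 CPM, against 632 to 783 in the other controls and 723.7 to 979.5 after naphthalene. The same held among controls for neutrophil markers, at 396 CPM against 68.6 to 97.5. It also held for glucocorticoid-responsive genes, at 1134 CPM against 748.5 to 999.7. Other lists were highest in control 3 too, among them alveolar type 1, alveolar type 2 and macrophage markers and other ERK-induced transcripts. The part of any of these in the Dusp1 level was not tested. The exons of Dusp1, Dusp5 and Spry1 overlap a gene on the opposite strand in GENCODE M21, and since the strand setting of the counting is not given, reads of these partners cannot be told apart from theirs.

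Of the Sprouty genes, Spry1 was at 80.7, 77.1, 75.7 and 74.8 CPM in controls and 91.4, 85.7, 78.4 and 69.9 CPM after naphthalene, with a log2 fold change of 0.08 (SE 0.09, edgeR adjusted p = 0.573). Spry2, a restraint on FGF signalling during lung branching, was at 42.1, 38.8, 43.0 and 40.1 CPM in controls and 47.6, 48.1, 44.2 and 37.4 CPM after naphthalene. Its log2 fold change was 0.11 (SE 0.09, edgeR adjusted p = 0.433). For both genes naphthalene 4 lay below all controls, and naphthalene 1 and 2 lay above them.

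Spry4, which also acts on signalling between receptor and RAF, was at 46.4, 55.1, 46.1 and 49.3 CPM in controls and 82.0, 69.9, 69.9 and 45.1 CPM after naphthalene. Naphthalene 4 was below every control and the other naphthalene libraries were above every control. The log2 fold change of 0.44 did not pass (SE 0.19, edgeR adjusted p = 0.0574), and without naphthalene 4 it was 0.59 with adjusted p = 0.00189. Spry4 also passed in DESeq2 (adjusted p = 0.0441) and in limma's voom with quality weights (adjusted p = 0.00484). Of 17 alternative settings, these 3 were the only ones in which it passed.

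Of the Spred genes, Spred2 was at 122, 115, 105.2 and 128 CPM in controls and 100.1, 91.0, 99.5 and 83.9 CPM after naphthalene, with no overlap between groups and a log2 fold change of -0.33 (SE 0.09, edgeR adjusted p = 0.0246). Spred1 was at 218, 204, 281 and 193 CPM in controls and 225, 277, 353 and 343 CPM after naphthalene. Control 3 was the highest control, above naphthalene 1 and 2. The log2 fold change of Spred1 was 0.42 (SE 0.19, edgeR adjusted p = 0.0722). Leaving out control 3 (adjusted p = 0.0256) or naphthalene 1 (0.0119) brought it past the threshold. The ratio of Spred1 to Spred2 overlapped between groups (exact permutation p = 0.0571, adjusted p = 0.161).

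Etv4 had the largest log2 fold change of the 10 and the lowest level. Its counts were 12, 6, 9 and 5 in controls and 27, 23, 23 and 14 after naphthalene, or 1.08, 0.435, 0.791 and 0.358 CPM against 1.61, 1.50, 2.02 and 1.28 CPM. All naphthalene libraries were above all controls. The log2 fold change was 1.30 (SE 0.32, edgeR adjusted p = 0.0195), and so few counts limit its precision.

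**Figure D2:**
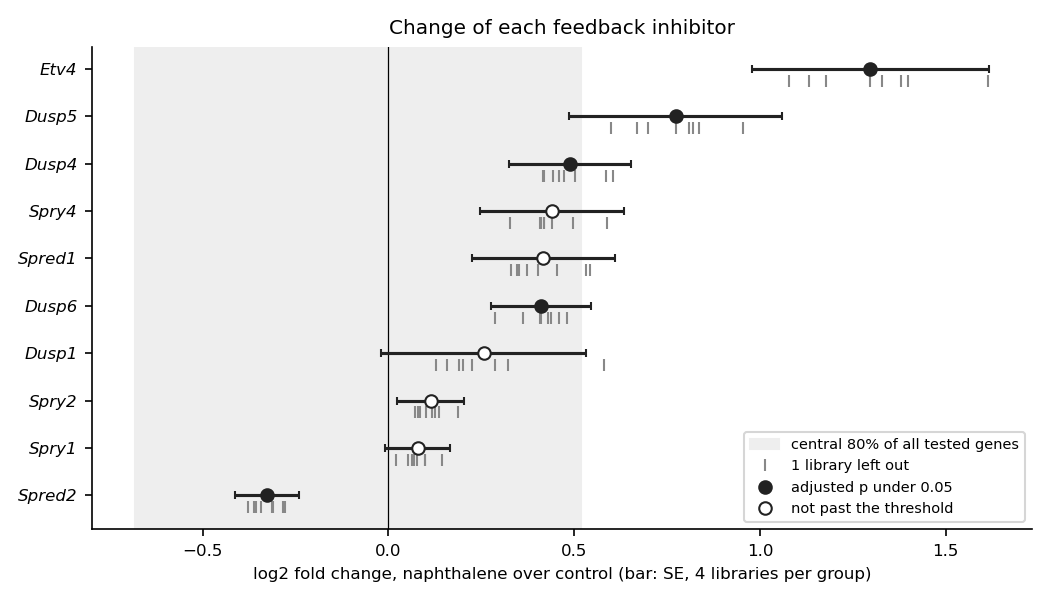
Log2 fold change of each gene, naphthalene over control (x axis), with SE bars from 4 libraries per group; filled points passed an adjusted p of 0.05, ticks are the estimates with 1 library left out, and the shaded band holds the central 80% of all tested genes. Etv4 at 1.30 and Dusp5 at 0.77 lie outside the band, Spred2 at -0.33 is the one gene below 0, and the ticks of every gene stay on one side of 0.

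The calls were close to the threshold. Leaving out 1 library at a time kept the sign of all 10 log2 fold changes in all 8 cases, but the number of genes past the threshold and higher fell from 4 to 1 without control 1, control 4, naphthalene 2 or naphthalene 3 and to 0 without control 2. Spred2 did not pass without control 1, 2 or 4 or naphthalene 2 (edgeR adjusted p 0.0571 to 0.0823). Dusp4 was lost without control 1, 2 or 3 or naphthalene 2 or 3 (0.0511 to 0.0796), Dusp5 without any library but control 3 and naphthalene 4 (0.0506 to 0.0944), Dusp6 without control 1, 2 or 4 or naphthalene 2 (0.0578 to 0.0873) and Etv4 without control 2 or 4 or naphthalene 3 (0.0574 to 0.0675). Over the same 8 fits the number of all genes past the threshold ranged from 2929 to 5058, against 4075 with every library.

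Ratios of a pair of these genes within a library do not depend on library scaling, and were compared between groups for all 45 pairs. By exact 2-sided permutation over the 70 assignments of libraries, 0 pairs passed after Benjamini-Hochberg adjustment (smallest adjusted p = 0.129), and 10 had an unadjusted p under 0.05, each at 0.0286, the smallest that these assignments allow. Of those 10 pairs, 7 included Spred2 and 3 included Etv4, the pair of Spred2 with Etv4 being in both counts. The ratio of Dusp4 to Spred2 was higher after naphthalene by 0.81 on the log2 scale (SE 0.11), from -1.98 to -1.16, and that of Dusp6 to Spry1 by 0.33 (SE 0.10), from 0.39 to 0.72, neither with overlap between groups. The ratio of Spry1 to Spry2 was 0.91 in controls and 0.88 after naphthalene on the log2 scale, a difference of -0.03 (SE 0.05, exact permutation p = 0.571 and adjusted p = 0.735). With 45 pairs and this smallest p, the adjusted value could pass only if most pairs were at the smallest p, so the count of 0 says nothing on whether single ratios differed.

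Levels were also put on a scale per exon length (CPM per kilobase of exon), on which different genes can be set side by side. On it Dusp1 had the highest mean in controls, at 42.4 ± 17.4 (SD, n = 4). Control 3 was at 68.2 and the other controls at 30.6 to 37.4. Spred1 followed at 33.1 ± 5.80, then Dusp6 at 32.3 ± 2.28, Spry1 at 26.5 ± 0.896, Spred2 at 25.4 ± 2.13 and Spry2 at 19.6 ± 0.905. Dusp4 at 10.9 ± 1.79, Spry4 at 10.4 ± 0.872, Dusp5 at 2.91 ± 0.443 and Etv4 at 0.214 ± 0.107 were the lowest. The libraries of Dusp1 and Spred1, of Spred1 and Dusp6, of Spry1 and Spred2, and of Dusp4 and Spry4 overlapped, so those neighbours cannot be ordered. Dusp1 and Dusp6 overlapped too and cannot be ordered either. After naphthalene the order of the means was the same but for Spry2 at 21.2 ± 2.37 and Spred2 at 20.3 ± 1.67, which had changed places and overlapped. Dusp1, Spred1 and Dusp6 overlapped one another there too, as did Dusp4 and Spry4.

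**Figure D3:**
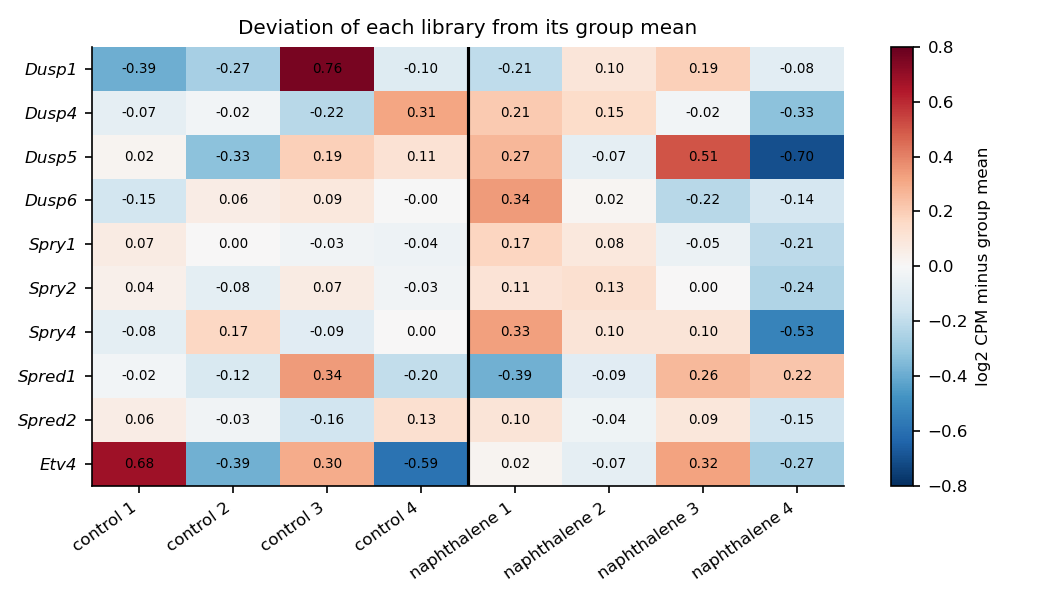
Deviation of each library from the mean of its own group, in log2 CPM (colour and numbers), for the 10 genes (rows) and 8 libraries (columns). Naphthalene 4 is below its group mean for 9 of 10 genes, Spred1 being the exception, and Dusp1 deviates most in control 3, by 0.76.

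The naphthalene libraries differed among themselves in a way that most of the 10 genes shared. Naphthalene 1 was above its group mean for 8 of the 10 genes and naphthalene 4 below it for 9 of 10. The matching shares over all tested genes were not computed, so these counts have no background beside them. Naphthalene 1 and 4 also differed most of all pairs of libraries within a group over genes in general (chi-square divided by its degrees of freedom, 51.2). Dusp5 and Spry4 were lower in naphthalene 4 than the group mean by the largest amounts, with deviations of -0.70 and -0.53 on the log2 scale. Spred1 ran the other way, with -0.39 in naphthalene 1 and 0.22 in naphthalene 4.

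Summed endothelial marker genes varied in the same libraries, at 4205, 3029, 2166 and 1946 CPM in naphthalene 1 to 4 against 3339 to 3893 CPM in controls. Levels of Spry1 and Dusp4 had the same order over the 4 naphthalene libraries as that sum, highest in 1 and lowest in 4, and the other 8 genes did not. That order was not particular to endothelial markers. Summed fibroblast markers were at 2139, 1885, 1791 and 1632 CPM in naphthalene 1 to 4, library totals fell from 16792306 to 11233709 counts in the same order, and the number of genes detected rose from 16781 to 17789. Of the 9 endothelial markers 2 fell and 0 rose, against 14.6% lower and 14.1% higher of all tested genes, and none was at 0. Some other marker sums ran in the reverse order, lowest in naphthalene 1 and highest in naphthalene 4. Alveolar type 2 sums went from 20640 to 27380 CPM, neutrophil sums from 216 to 495.7 CPM, and macrophage and monocyte sums from 296.3 to 564.4 CPM. The part of endothelial cells, fibroblasts, these other cell types or depth in the levels of the 10 genes was not tested.

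**Figure D4:**
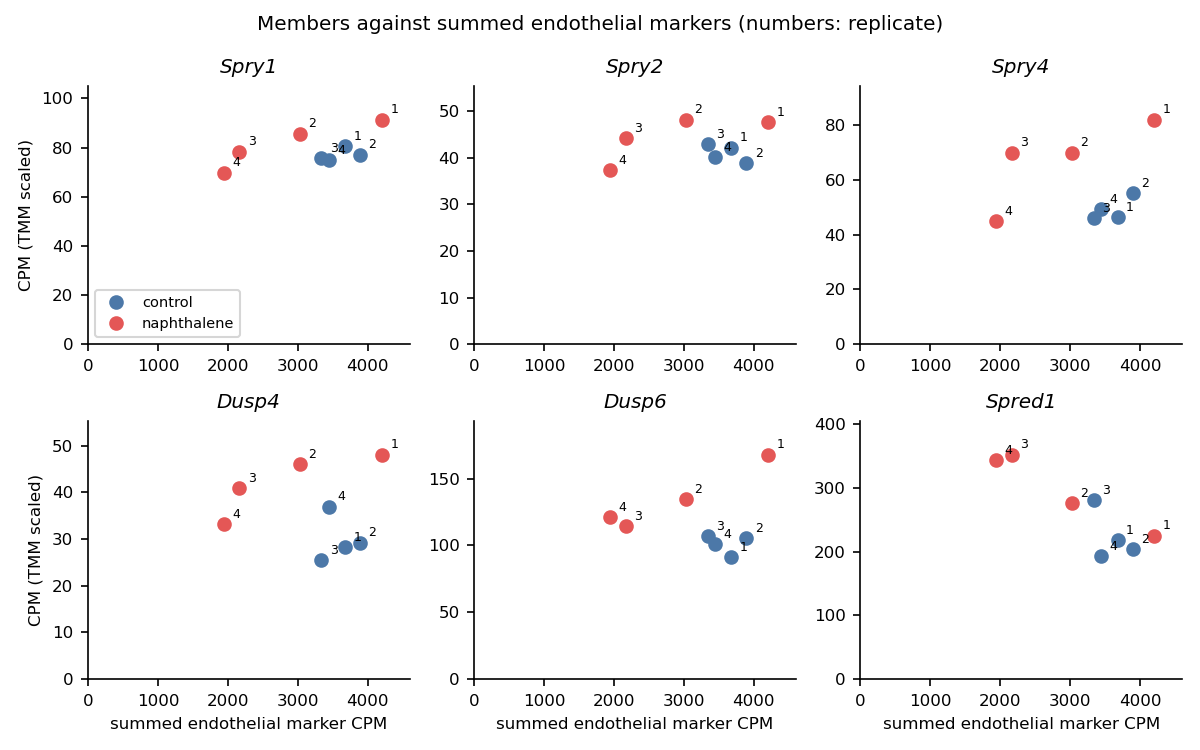
Level of 6 of the genes (CPM, y axes from 0) against the sum of 9 endothelial markers (CPM, x axes from 0), 1 point per library with its replicate number. Controls lie within 3339 to 3893 CPM on the x axis and naphthalene libraries spread from 1946 to 4205 CPM. In naphthalene 4, Spry1, Spry2 and Spry4 are lowest of all libraries, Dusp4 is lowest of the naphthalene libraries only, and Spred1 is high.

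For other cell type markers, counts are to be read against 14.1% of all tested genes higher and 14.6% lower. All 6 club cell markers fell, with summed levels of 4737 to 9709 CPM in controls and 993 to 2712 CPM after naphthalene, as did 5 of 6 ciliated cell markers, 8 of 8 T and NK cell markers and 6 of 6 B cell markers. Alveolar type 2 markers summed to 19370 to 24400 CPM in controls and 20640 to 27380 CPM after naphthalene, with 3 of 8 higher, and 3 of 6 alveolar type 1 markers were higher. Of 5 tested neutrophil markers 1 rose, of 8 fibroblast markers 2 fell, of 5 tested smooth muscle markers 0 passed, and of 7 tested macrophage and monocyte markers 1 rose and 3 fell. The part of these shifts in the levels of the feedback inhibitors was not tested.

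Counts for the other genes of the pathway are to be read against 28.7% of all tested genes past the threshold, 14.1% higher and 14.6% lower. In either direction, the shares past the threshold in the core cascade and the FGF list were near 28.7%. Those of the other phosphatases and other feedback inhibitors were below it. Among rises, the core cascade (5 of 21), the FGF list (2 of 10) and the other phosphatases (1 of 5) were above 14.1%. The other feedback inhibitors (1 of 14) were below it. Among falls, all of these lists were below 14.6%. Of 9 tested EGF family ligands and receptors, 4 rose, all of them ligands, and 1 ligand fell. Ereg (epiregulin) rose from 0.431 ± 0.248 to 16.1 ± 2.41 CPM, while the receptor gene Egfr was at 90.0 ± 12.1 and 92.3 ± 6.95 CPM (log2 fold change 0.04, SE 0.11, did not pass; Egfr was chosen after its values were seen). Areg and Hbegf also rose, and betacellulin, encoded by Btc, fell from 10.8 ± 1.28 to 5.60 ± 1.51 CPM. Among 10 tested FGF ligands and receptors, Fgf2 and Fgf7 rose, with log2 fold changes of 0.66 and 0.39, and the receptor gene Fgfr4 fell by 1.57. Fgf7 passed in 2 of the 8 fits with 1 library left out, those without control 3 or naphthalene 1, and in the other fits its adjusted p was 0.0672 to 0.133. It also did not pass with upper quartile scaling or with no filter on low counts. Tgfa, the fourth EGF family ligand that rose, did not pass without naphthalene 2 (edgeR adjusted p = 0.0529), and it was named after its values were seen. Fgf7 was named as one of the up to 4 genes of smallest p that passed in its list.

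In the core cascade 5 of 21 tested genes rose and 1 fell, with a median log2 fold change of 0.09. The GTPase gene Hras rose from 34.9 ± 2.46 to 54.9 ± 4.04 CPM. Ptpn11, which encodes the phosphatase SHP2, the adaptor gene Shc1 and the MEK gene Map2k1 had log2 fold changes of 0.57, 0.79 and 0.34, and all passed. Mapk3, an ERK gene that fell by 0.46, was named after its values were seen. Mapk3 passed in 2 of the 8 fits with 1 library left out, those without control 3 or naphthalene 1. With control 3 and naphthalene 1 both left out, 8 core genes rose and 2 fell. These counts were not set against the calls over all genes in that fit.

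Of 5 other MAP kinase phosphatase genes tested 1 rose, Dusp7, an ERK phosphatase of the cytoplasm, from 81.4 ± 6.07 to 118 ± 17.8 CPM (edgeR adjusted p = 0.00534). Of 14 other feedback inhibitors of receptor tyrosine kinase signalling 1 rose and 1 fell, with a median of 0.02. Errfi1, an inhibitor of EGF receptors that is also a glucocorticoid target, rose from 185 ± 46.6 to 472 ± 70.3 CPM, and Lrig1, which promotes the loss of those receptors from the membrane, fell from 62.4 ± 9.22 to 32.5 ± 6.17 CPM. Without naphthalene 4 the number that rose was 2 in each of these lists, and without naphthalene 1 the number of feedback inhibitors that fell was 2. The calls over all genes in those fits were not set beside these counts.

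Among 15 other transcripts known to be induced by ERK, 7 rose and 1 fell, with a median log2 fold change of 0.35. Myc, a transcription factor of growth, rose from 4.30 ± 1.03 to 16.2 ± 1.93 CPM, Epha2, a receptor kinase of the ephrin family, from 80.8 ± 3.70 to 216 ± 66.6 CPM and Plaur, the urokinase receptor gene, from 25.2 ± 2.71 to 73.5 ± 26.0 CPM. Fosl1, an AP-1 subunit gene, was counted 0, 2, 2 and 0 times in controls 1 to 4, against 20, 25, 25 and 9 times in the naphthalene libraries (edgeR adjusted p = 0.000952), and its fitted fold change depends on the prior count. The fall was in Etv1 (log2 fold change -0.74, SE 0.22, edgeR adjusted p = 0.0112), which like Etv5 (228 ± 18.7 and 230 ± 23.3 CPM, edgeR adjusted p = 0.925) belongs with Etv4 to the PEA3 group. Both were named after their values were seen. Thus the 3 PEA3 genes gave 1 rise, 1 fall and 1 that did not pass.

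All 11 glucocorticoid-responsive genes rose, against 14.1% of all tested genes, with a median of 1.35. Pdk4, Mt2, Ddit4 and Fkbp5 had the smallest p. That list was chosen with earlier results of these data known, and Errfi1 is also on the list of other feedback inhibitors. Of 12 tested immediate early genes of tissue handling 4 rose (Socs3, Egr2, Junb and Klf4) and Nr4a1 fell, while Fos, which is also on the ERK-induced list, was at 63.5 ± 28.7 and 52.7 ± 15.1 CPM (edgeR adjusted p = 0.532; Fos and Nr4a1 were named after their values were seen). For Nr4a1 the edgeR adjusted p was 0.0725 to 0.0849 in the fits lacking control 3, control 4 or naphthalene 2. For Klf4 it was 0.0501 to 0.0564 in those lacking control 1, control 4 or naphthalene 2. Since Dusp1 responds both to glucocorticoids and to handling, these values are given beside its own, and their part in it was not tested.

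**Figure D5:**
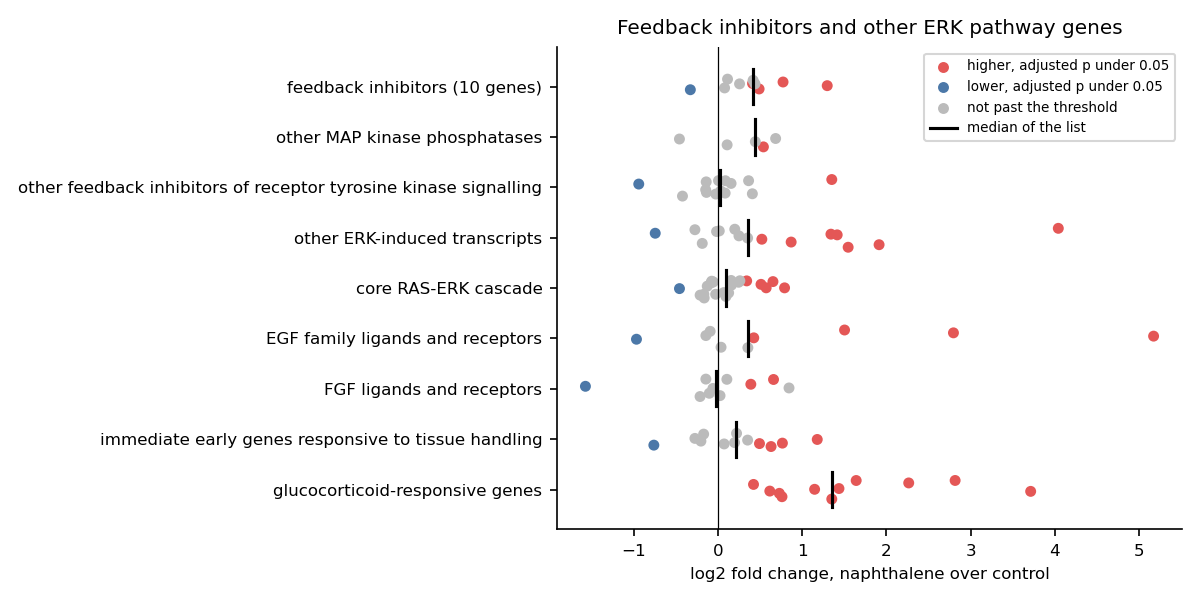
Log2 fold change, naphthalene over control (x axis), of each tested gene (points) in the 10 feedback inhibitors and 8 other lists (rows), coloured by whether the gene passed an adjusted p of 0.05, with the list median as a bar. The feedback inhibitors have a median of 0.41 and span -0.33 to 1.30, while the largest value plotted is that of Ereg at 5.17 and all 11 glucocorticoid-responsive genes are above 0; the value of 4.04 for Fosl1 rests on 4 control counts.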

How the data were processed

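Total RNA libraries of 4 control and 4 naphthalene-injected lungs were compared. The authors deposited unnormalised counts of reads, in whole numbers, with 1 row for each gene symbol. Per the submitters' processing notes, the genome build was mm39 and the tools were featureCounts 2.0.6, Trim Galore 0.6.7, edgeR 4.2.1 and HISAT2 2.2.1, whose roles and order are not listed. Annotation, strand setting and handling of multi-mapping reads: not given in the sources used here. Totals were 10743842 to 16792306 counts, so that 3 counts in a library correspond to 0.178 to 0.274 CPM.

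Columns were matched to mice by library name. The test was edgeR 4.0.16 under R 4.3.3 (TMM, filterByExpr with minimum count 10 and total 15, quasi-likelihood test, group only), with Benjamini-Hochberg adjustment over 14192 genes. SEs are those of the difference in mean log2 CPM (prior count 2). Ratios used a pseudocount of 0.5 counts. Exon lengths and overlaps came from GENCODE M21 (GRCm38) and used no coordinates of the counts. P-values judge the difference between groups against the spread between these libraries. Within groups, every pair of libraries differed beyond sampling noise (chi-square divided by its degrees of freedom, 5.75 to 51.2). Thus none was a second sequencing of another library. Separate libraries made from a single mouse could also differ in this way, so the check does not show that the mice were separate. On data simulated for this comparison (14091 genes), 82% of genes changed by a log2 value of 1 and 76.6% of those changed by -1 were called. In the simulation 13894 genes were unchanged, whereas 28.7% of tested genes passed in the data. Changes smaller than 1, as found for all of the 10 genes but Etv4, were not simulated. These shares therefore do not say how often such changes are called.

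The 10 genes, the lists and the alternatives were chosen with earlier results of these data known. Named genes were the 10 and, from each pathway list, up to 4 of smallest p among those that passed, or up to 2 where none passed. Alternatives were RLE and upper quartile scaling, no or a stricter filter, a replicate block, each library left out, control 3 and naphthalene 1 left out together, DESeq2 1.42.0, voom with quality weights (limma 3.58.1), and removal of mitochondrial and haemoglobin genes.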

Additional observations from a re-analysis of the deposited data

How the results depend on the processing

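Under all 17 alternatives each of the 10 log2 fold changes kept its sign. The number of the 10 genes past the threshold was 4 higher and 1 lower, and it stayed at 4 to 5 higher and 1 lower under RLE and upper quartile scaling, both filters, the replicate block, DESeq2, the removal of mitochondrial and haemoglobin genes, and without control 3 and naphthalene 1 together. Voom with quality weights gave 7 higher, a count that was not set against the calls over all genes in that fit. Leaving out 1 library gave 0 to 5 higher and 0 to 1 lower. Fewer libraries also gave fewer calls over all genes in most cases, and other causes were not tested. The adjusted permutation test of the ratios could hardly pass at these group sizes, so its alternatives say nothing on stability. Without control 3 and naphthalene 1 together, Dusp1 and Spred1 passed (edgeR adjusted p = 0.00135 and 0.00148) and Dusp4 and Dusp5 did not (0.0895 and 0.0531). Upper quartile scaling moved the median of all genes from 0.01 to -0.02. The labels do not say that a replicate number marks a shared litter or day. The deviations of same-numbered libraries had correlations of 0.29, 0.03, 0.18 and -0.09, not all over 0.1, so the numbers were not used to pair them, which does not show that nothing was shared. With the replicate block 5 of the genes passed as higher, Spred1 being added (adjusted p = 0.0365), and the block changed no other call among the 10. Depth limits Etv4 most, at 5 to 27 counts per library.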

Other observations

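Of the 180 genes on the pathway and marker lists, 9 were listed at 0 counts in all 8 libraries, among them the MAP kinase phosphatase gene Dusp10, the ERK-induced gene Epha4 and the immediate early genes Atf3 and Btg2. They were chosen for mention after their values were seen, and a listed 0 was not read as absence of expression.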
